A study of Mus musculus with 38 samples.

Results

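In control diet-fed mice, the PanCK+ segments of the liver from Trail.mye mice differed from those of WT mice in 18 autosomal genes. Levels of *Cyp2a4*, *Hamp2*, *Dbp*, *Tmc5*, *Cyp3a41a*, *Thrsp* and *Cyp2c67* were higher in Trail.mye segments, and levels of *Gstp1*, *Mup13*, *Nudt7*, *Scp2*, *Cyp2d10*, *Bhmt*, *Aox3*, *Clec2j*, *Klrg2*, *Gm7995* and *Sesn3* were lower. PanCK, a stain for cytokeratins, marks the cholangiocytes that line the bile ducts. The comparison took the PanCK+ segments of control diet-fed mice as their labels name them, 4 from Trail.mye mice (ROIs 26, 27, 28 and 29) against 3 from WT mice (ROIs 1, 3 and 5), which were 7 of the 38 segments in the series. It was read over the autosomal genes, 10218 of the 10547 genes in the table. The fold changes are given as Trail.mye over WT on the log2 scale.

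The liver sections came from C57BL/6 mice that were 6 to 8 weeks old when the feeding began. WT mice carried no engineered *Trail* allele. In Trail.mye mice, floxed copies of *Tnfsf10*, the gene for TRAIL, are removed by a Cre recombinase under the *Lyz2* promoter, which is active in macrophages, neutrophils and other myeloid cells. The floxed line was derived from C57BL/6N sperm and crossed with recombinase lines. The substrain of the WT mice is not stated. All mice of both groups received 3 rounds of control diet of 5 days each, separated by 2 rounds of chow of 3 days each, over 21 days in all, and the experiment ended on day 22. The DDC-fed groups, which enter as a comparison, followed the same schedule with DDC in the diet, which damages the bile ducts and blocks bile flow. In the GeoMx assay, barcoded probes are released by light from a segment of a fixed section, amplified over 18 cycles and counted by sequencing. The labels tie no segment to an animal or a section, so the segments served as the replicates. They may share an animal, and the p-values are then too small to stand for animals. The sex of the mice is not in the labels, and the methods describe the mice as gender-matched.

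Cholangiocytes form the epithelium of the bile ducts in the portal tract, and they are marked by cytokeratin 19 (*Krt19*), *Epcam*, *Sox9* and osteopontin (*Spp1*). TRAIL is a death ligand that binds receptors on target cells and activates caspases. The hepatocytes around the portal tract hold large amounts of RNA for secreted proteins and for cytochrome P450 enzymes. A number of these hepatocyte genes differ between male and female mice, and others follow the time of day.

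The segments bore out their label. In the 6 ROIs with both a PanCK+ and an IBA1+ segment (IBA1 marks macrophages), *Krt19*, *Epcam*, *Sox9* and *Spp1* were above their IBA1+ partner in 6 of 6. The Kupffer cell gene *Clec4f* and the complement gene *C1qa* were lower there in 6 of 6. *Spp1* averaged 626 Q3-normalized counts in PanCK+ segments and 7.04 in IBA1+ segments. Q3 normalization scales every segment to the same 75th percentile. Hepatocyte RNA was still present, since *Alb*, the gene for albumin, averaged 3255 in the PanCK+ segments against 7714 in the IBA1+ segments of the same ROIs.

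The depth moved with the genotype. The WT segments held 29510, 23481 and 24303 counts in total, and the Trail.mye segments held 35078, 37223, 37758 and 54834. The groups did not overlap, which gave a two-sided exact permutation p of 0.0571, the smallest that the 35 splits of 3 and 4 segments allow. The lowest value in the table is 1 count, and whether a 0 was set to 1 is not stated. A mean of 60.5% ± 6.85 (SD, n = 3) of autosomal genes stood at 1 count in WT segments, against 32.5% ± 9.18 (SD, n = 4) in Trail.mye segments. For genes at 1 count in both groups, a difference was not detectable at this depth.

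The 18 called genes had a Benjamini-Hochberg adjusted p under 0.05 in edgeR's quasi-likelihood test over all genes, and they were 0.176% of the 10218 autosomal genes. Of these, 7 were higher in Trail.mye segments (0.0685% of the genes) and 11 lower (0.108%). At an unadjusted p under 0.05 there were 248 of the 10218, a smaller share than the 0.05 that would come with no difference in any gene. Over all genes the median log2 fold change was -0.06, or 0.13 with TMM factors, against sizes of 1.79 or more in the called genes. In 7 of the 7 higher and 10 of the 11 lower genes the Q3-normalized values of both groups did not overlap, against 2.03% (higher) and 2.67% (lower) of all autosomal genes, or 4.70% together. The genes were called on these same segments, so this separation is in large part fixed by the call and is no separate support for it. On the counts themselves, which do not take depth into account, *Clec2j*, *Scp2* and *Gm7995* overlapped and *Nudt7* tied. These numbers rest on few segments: without WT ROI 1 the count was 9, without WT ROI 3 it was 11, and DESeq2 gave 10.

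**Figure D1:**
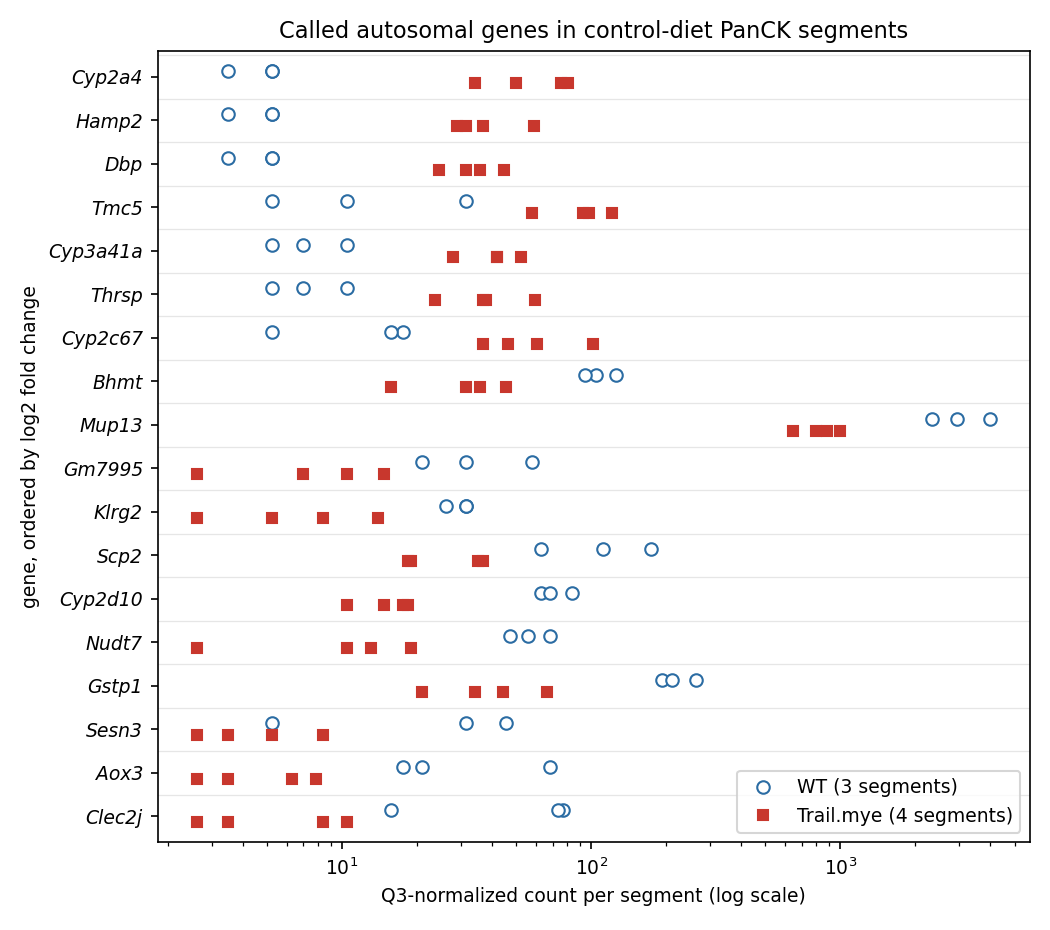
Q3-normalized counts (log scale) of the 18 called autosomal genes in the 7 control-diet PanCK segments, with open circles for the 3 WT and filled squares for the 4 Trail.mye segments. In 17 genes the groups do not overlap, and in Sesn3 the lowest WT segment lies among the Trail.mye segments.

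The genes that were higher in Trail.mye segments began with 3 that stood at the lowest value in every WT segment. *Cyp2a4* (chr7:26307192-26315088 in GRCm38.p6), a steroid hydroxylase of the cytochrome P450 family with higher levels in female than in male mouse liver, had 1, 1 and 1 counts in WT segments and 23, 13, 19 and 36 in Trail.mye segments. Every Trail.mye segment was above every WT segment. Since WT stood at the floor, the change is a bound, at least 4.29-fold higher with 3 counts per segment as the floor (fitted log2 fold change 3.70 ± 0.65 SE, adjusted p = 0.000183 in edgeR). *Hamp2*, a gene of the hepcidin family, had 1, 1 and 1 counts against 9, 11, 14 and 28, at least 2.78-fold higher (adjusted p = 0.00166 in edgeR). *Dbp*, a transcription factor whose level follows the circadian clock, had 1, 1 and 1 counts against 7, 17, 12 and 17, at least 2.43-fold higher (adjusted p = 0.0101 in edgeR). In all 3 genes the WT level is known only as a bound.

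The other 4 higher genes were measured at a few counts in WT segments. *Tmc5*, of the transmembrane channel-like family, had 3, 1 and 6 counts in WT and 28, 22, 46 and 44 in Trail.mye segments, a log2 fold change of 2.60 ± 0.57 SE (adjusted p = 0.00958 in edgeR). *Cyp3a41a*, a P450 gene with higher levels in female liver, had 2, 2 and 1 against 8, 16, 16 and 25, a log2 fold change of 2.47 ± 0.61 SE (adjusted p = 0.0457). Here too the lowest Trail.mye segment stood above the highest WT segment. *Thrsp*, also called Spot 14, which promotes fatty acid synthesis, had 2, 2 and 1 against 17, 14, 9 and 18 (log2 fold change 2.34 ± 0.54 SE). *Cyp2c67*, a P450 of the arachidonic acid-metabolizing family, had 5, 3 and 1 against 29, 14, 23 and 22 (log2 fold change 2.13 ± 0.47 SE). Of the 7 higher genes, *Cyp2a4* alone kept its call with each of the 7 segments left out in turn. *Hamp2* lost it without WT ROI 1, *Dbp* without any 1 of the WT segments, and *Cyp3a41a* without any of 6 segments.

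Among the genes that were lower in Trail.mye segments, those at higher counts encode enzymes and secreted proteins of hepatocytes. *Mup13* (chr4:61224308-61228252), one of the major urinary proteins that carry pheromones, was by far the most abundant, with 663, 759 and 561 counts in WT segments and 228, 245, 379 and 422 in Trail.mye segments. The Q3-normalized means were 3085 ± 841 (SD, n = 3) and 831 ± 149 (SD, n = 4), and the log2 fold change was -1.89 ± 0.33 SE (adjusted p = 0.000177 in edgeR). Every WT segment was above every Trail.mye segment. *Gstp1* (chr19:4035411-4037912), a glutathione transferase that is higher in male liver, had 55, 50 and 40 counts against 19, 13, 8 and 21, and fell by 2.44 ± 0.39 SE on the log2 scale (adjusted p = 3.13e-05 in edgeR). *Bhmt*, which remethylates homocysteine with betaine, had 36, 20 and 18 counts against 13, 12, 6 and 17, a log2 fold change of -1.79 ± 0.40 SE. Its groups nearly meet on counts, 17 in the deepest Trail.mye segment against 18 in WT ROI 5.

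A second group of lower genes encodes further enzymes and carriers. *Nudt7* (chr8:114133574-114154731), a peroxisomal hydrolase of coenzyme A, had 16, 9 and 13 counts in WT and 3, 5, 1 and 9 in Trail.mye segments, a log2 fold change of -2.27 ± 0.40 SE (adjusted p = 0.00021 in edgeR). *Cyp2d10* (chr15:82402845-82407253), a P450 enzyme, had 18, 13 and 16 counts against 5, 4, 7 and 7 (log2 fold change -2.22 ± 0.43 SE). *Scp2*, a carrier of sterols that works in peroxisomes, had 32, 33 and 12 counts against 10, 14, 7 and 9 (log2 fold change -2.12 ± 0.39 SE). On counts, WT ROI 5 lay inside the Trail.mye range of *Scp2*, and the groups stood apart only after Q3 scaling (63.0 in WT ROI 5 against at most 36.8). *Aox3*, an aldehyde oxidase, had 5, 13 and 4 counts against 1, 3, 1 and 3 (log2 fold change -2.64 ± 0.53 SE), with WT ROI 3 far above the other WT segments.

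The last 4 lower genes had at most 22 counts in any segment. *Clec2j* (chr6:128655105-128657027), a C-type lectin family member that RefSeq lists as a pseudogene, had 22, 3 and 14 counts in WT and 1, 4, 1 and 4 in Trail.mye segments, a log2 fold change of -3.12 ± 0.47 SE (adjusted p = 7.39e-06 in edgeR). *Klrg2*, a lectin-like receptor, had 9, 6 and 5 against 4, 2, 1 and 4 (log2 fold change -2.04 ± 0.47 SE, adjusted p = 0.0453). *Gm7995*, a predicted gene, had 9, 4 and 11 against 2, 4, 1 and 7 (log2 fold change -1.97 ± 0.48 SE, adjusted p = 0.0449). With *Cyp3a41a*, these 2 genes lay closest to the threshold. *Sesn3*, a stress-induced sestrin, had 13, 1 and 6 against 1, 1, 2 and 4, with groups that overlapped, and it was named after its values were seen.

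Of all 18 called genes, 6 kept their call with each of the 7 segments left out in turn, namely *Cyp2a4*, *Clec2j*, *Gstp1*, *Nudt7*, *Cyp2d10* and *Mup13*. The other 12 lost it without 1 to 6 of the segments, *Klrg2* and *Cyp3a41a* without 6. No call changed its direction under any alternative run. The genes of the *Mup*, *Cyp2a*, *Cyp2c*, *Cyp2d*, *Cyp3a* and *Gstp* families and *Gm7995* have close relatives in the genome, and a probe count may include these.

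Targets on the Y chromosome differed between the same segments. *Gm21783*, a Y-linked gene, had 28, 24 and 20 counts in WT and 1, 1, 1 and 3 in Trail.mye segments, a log2 fold change of -4.76 (adjusted p = 7.09e-10 in edgeR). *Gm20815*, *Gm21828* and *Gm20792* were lower in Trail.mye segments too, with log2 fold changes of -3.88, -3.59 and -2.93, and these 4 were the Y-linked genes called among 11. The Y-linked genes *Ddx3y*, *Eif2s3y*, *Uty*, *Sry* and *Gm10256* stood at 1 to 3 counts in every segment of both groups and carry no information at this depth. *Sly* was lower without a call (log2 fold change -2.27, adjusted p = 0.115 in edgeR). *Gm52481* showed no difference, with 2, 3 and 3 counts in WT and 3, 4, 7 and 4 in Trail.mye segments (log2 fold change -0.03). Whether the called Y-linked targets count separate transcripts was not examined. On the X chromosome, *Srsx* was the 1 gene called (log2 fold change -2.88).

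Liver genes known for a sex difference are given beside these targets. In the list of female-biased liver genes, 2 of 17 measured autosomal members rose (*Cyp2a4* and *Cyp3a41a*), none fell, and 14 lay above 0, with a median log2 fold change of 0.55. In the male-biased list, 2 of 13 fell (*Gstp1* and *Nudt7*), none rose, and 11 lay below 0, with a median of -0.74. The median over all autosomal genes was -0.06. The other called genes, such as *Hamp2* and *Mup13*, are on neither list, and whether they differ by sex was not examined. The summed Q3-normalized count of the female-biased list was 121 to 147 in WT segments and 207 to 319 in Trail.mye segments, without overlap. That of the male-biased list was 364 to 530 in WT and 91.9 to 235 in Trail.mye segments, also without overlap. Both sums and both medians include the called members, so they are not separate from those calls. *Cyp2a4* averaged 4.67 Q3-normalized counts in WT and 60.0 in Trail.mye segments, and *Gstp1* averaged 222 and 41.4. Whether the sums stand apart without the called members was not tested. Among members that did not pass the test, the complement gene *C6* of the male-biased list had 3, 6 and 2 counts against 1, 2, 1 and 2. It was picked with its values known. The 2 members of that list above 0 were *Ugt2b38*, with 3, 2 and 1 counts against 8, 5, 6 and 4 (log2 fold change 0.75), and *Ugt2b1* (0.25). Genotype and the difference in Y-linked targets run along the same split of the segments, and their parts in the called genes cannot be told apart.

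The remaining lists of the 26 gave 2 called autosomal genes, *Thrsp* among 15 lipogenic and cholesterol synthesis genes and *Gstp1* among 15 phase II conjugation genes. In the lipogenic list, the key enzymes *Fasn*, *Scd1* and *Acaca* were not called (log2 fold changes 0.18, -0.59 and 1.31), nor was the master regulator *Srebf1* (0.25). The cell type markers gave no call. The 14 cholangiocyte markers had a median of -0.30, with *Krt19* at 0.73 ± 0.58 SE, *Epcam* at -0.50 ± 0.46, *Sox9* at -0.79 ± 0.52 and *Spp1* at -0.41 ± 0.33, and their summed level was 872 to 1187 Q3-normalized counts in WT and 714 to 987 in Trail.mye segments. The 9 hepatocyte markers had a median of -0.02 and a summed level of 3157 to 5026 in WT and 3057 to 8102 in Trail.mye segments, which overlapped. *Alb* had a log2 fold change of 0.63 ± 0.33 SE. In such segments, fewer cells of a type and less RNA per cell cannot be told apart. The 9 macrophage and Kupffer cell markers summed to 52.5 to 78.8 in WT and 45.5 to 94.5 in Trail.mye segments, and the 10 fibroblast and stellate cell markers to 78.8 to 94.5 and 94.5 to 172. Of the latter, 2 had higher groups without overlap and no call, against 2.03% of all autosomal genes. They were picked with their values known. The collagen gene *Col3a1* had 4, 1 and 1 counts in WT and 6, 13, 20 and 16 in Trail.mye segments, and the pericyte gene *Rgs5* had 1, 1 and 1 against 2, 3, 4 and 11. The list's median log2 fold change was 0.36, and 1.18 in the IBA1+ segments. In the PanCK+ segments 7 of its 10 members lay above 0, and *Acta2* (-0.62), *Pdgfrb* (-0.52) and *Lum* (-0.32) lay below. The 9 endothelial markers summed to 52.5 to 68.3 in WT and 28.9 to 56.0 in Trail.mye segments, the 5 neutrophil markers to 31.5 to 35.0 and 18.4 to 35.0, and the 6 lymphoid and plasma cell markers to 21.0 to 52.5 and 28.0 to 242. The value of 242 is that of ROI 29 alone, where the immunoglobulin genes *Igkc* and *Igha* had 51 and 52 counts, against at most 7 and 1 in the other Trail.mye segments. The part of these cells in the called genes was not tested.

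**Figure D2:**
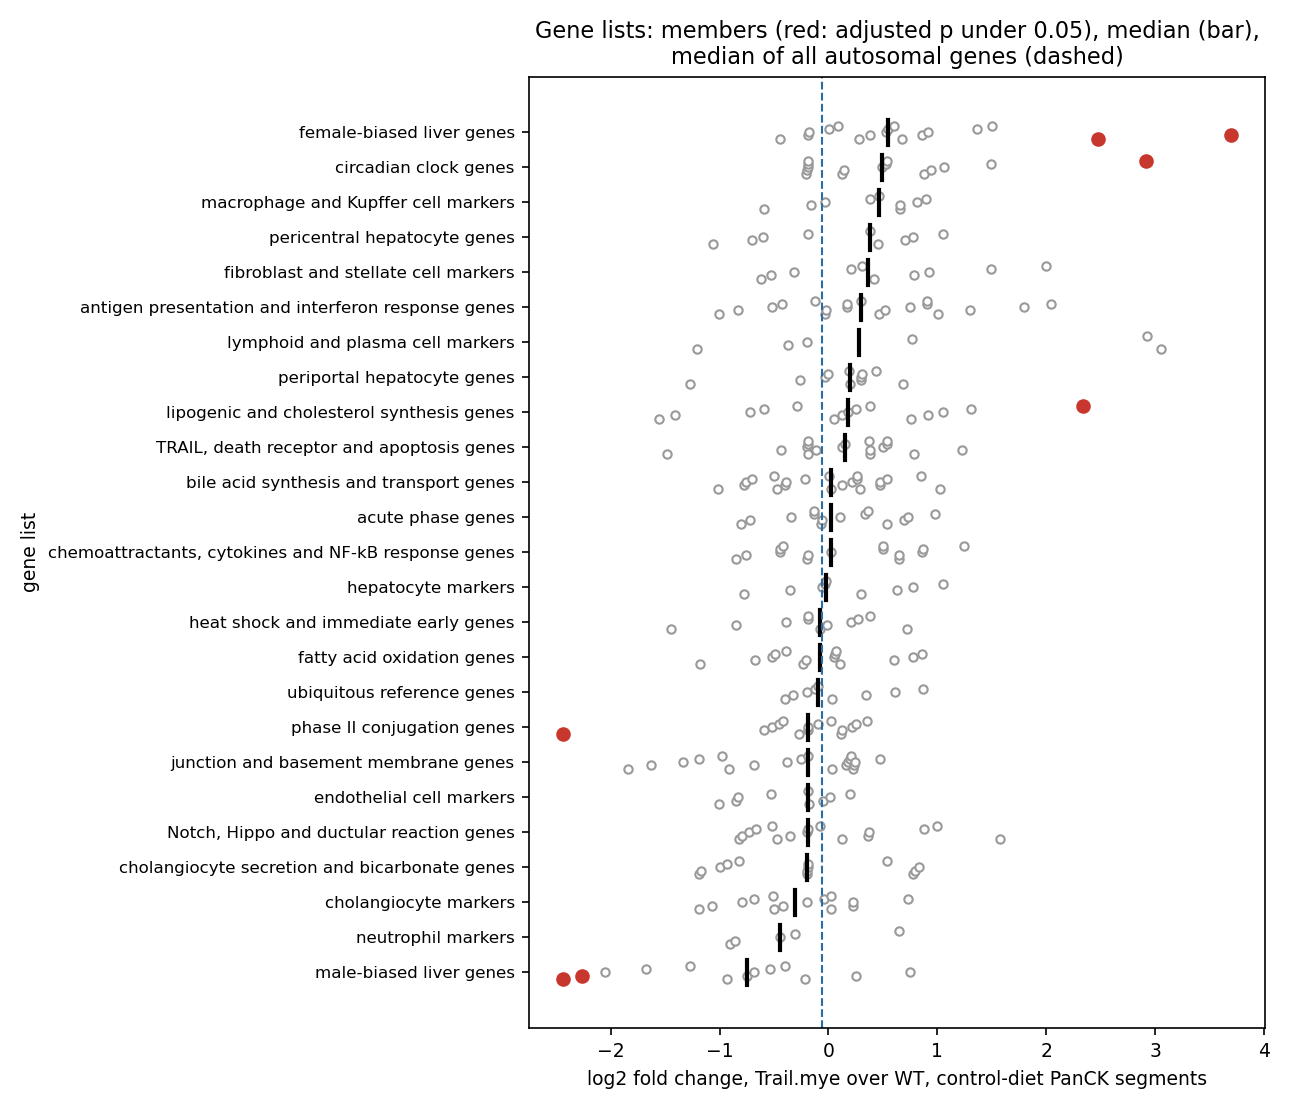
Log2 fold change (Trail.mye over WT, control-diet PanCK segments) of the autosomal members of each gene list with 5 or more of them, with red points for called genes, a bar for the list's median and a dashed line for the median of all autosomal genes (-0.06). The female-biased list has the highest median (0.55) and the male-biased list the lowest (-0.74).

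*Dbp* is a gene of the circadian output, and a list of clock genes was added after its value had been seen. Of 15 measured members, *Dbp* itself among them, *Dbp* rose and none fell. In all, 10 lay above 0, with a median log2 fold change of 0.50 and a lowest of -0.21. The members given next were picked from those above 0, and those below 0 are not shown. The nuclear receptor gene *Nr1d2* had 1, 1 and 2 counts in WT and 5, 8, 7 and 6 in Trail.mye segments, and the period gene *Per2* had 1, 1 and 3 against 6, 6, 5 and 7. Neither passed the test (log2 fold changes 1.49 and 1.06). *Nr1d1*, which encodes a clock repressor, had 5, 5 and 2 against 8, 11, 6 and 15 (log2 fold change 0.54), with groups that overlapped once scaled. The time of day at which each mouse was euthanized is not in the labels.

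Chemokine and cytokine genes were mostly near the floor on the control diet. None of 15 autosomal chemoattractant, cytokine and NF-kB response genes was called, and their median log2 fold change was 0.02. *Tnf* had 1 count in all 7 segments. The neutrophil chemokine *Cxcl1* had 1, 1 and 1 counts in WT and 1, 1, 3 and 1 in Trail.mye segments, *Cxcl5* had 1, 1 and 1 against 1, 1, 1 and 4, and *S100a8* and *Ccl2* had 2 counts at most. No fold is given for these genes. *Spp1*, also on this list, was abundant, with 145, 156 and 154 counts in WT and 137, 168, 211 and 311 in Trail.mye segments. The highest log2 fold change was that of *Cxcl16*, a chemokine that draws T cells, with 3, 2 and 2 counts in WT and 6, 15, 8 and 9 in Trail.mye segments (log2 fold change 1.24 ± 0.65 SE, adjusted p = 0.995 in edgeR).

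The TRAIL pathway was likewise not called. *Tnfsf10* itself was not analysed here, so the deletion was not checked in these segments. Among 17 autosomal genes of death receptors and apoptosis, the median log2 fold change was 0.15, and none passed the test. The TRAIL receptor gene *Tnfrsf10b* had 1, 1 and 1 counts in WT and 1, 3, 2 and 3 in Trail.mye segments. *Casp8*, the initiator caspase, had 1, 1 and 1 against 1, 2, 4 and 5. The survival gene *Bcl2l1* was the highest in the list, with 1, 2 and 2 against 6, 8, 6 and 7 (log2 fold change 1.23 ± 0.62 SE, adjusted p = 0.995 in edgeR). The list ran in both directions: 10 of the 17 lay above 0, and the lowest log2 fold change, of a member not shown, was -1.48. *Lyz2*, whose locus carries the Cre, and *Nnt* and *Wdfy1*, which can differ between substrains, were not called on the control diet. *Nnt* had 1, 1 and 1 counts in WT and 3, 6, 3 and 2 in Trail.mye segments, too few for a fold. On DDC, *Nnt* was called, at 2.98 ± 1.52 Q3-normalized counts (SD, n = 4) in WT and 12.9 ± 0.932 (SD, n = 5) in Trail.mye PanCK+ segments (log2 fold change 2.11, adjusted p = 0.0303 in edgeR).

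The same genotype contrast was then read in the periportal IBA1+ segments of control diet-fed mice, 4 from Trail.mye mice and 2 from WT mice. They come from the same ROIs as 6 of the 7 PanCK+ segments and are not independent of them as tissue. Of the 18 genes, 11 were called there too, and 17 had the same sign. In all, 20 autosomal genes were called (0.196%), 4 higher (0.0391%) and 16 lower (0.157%), and 4 were called without WT ROI 5. *Gstp1* was at 614 ± 215 Q3-normalized counts (SD, n = 2) in WT and 53.9 ± 11.0 (SD, n = 4) in Trail.mye IBA1+ segments. *Cyp2a4* was at 5.25 in both WT segments, which is 1 count each, and at 125 ± 17.0 (SD, n = 4) in Trail.mye segments. *Sesn3* had the opposite sign (log2 fold change 0.25), and *Clec2j*, *Klrg2*, *Gm7995*, *Dbp*, *Tmc5* and *Cyp3a41a* kept the sign without a call.

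No gene was called for a difference between the 2 segment classes in the genotype contrast (edgeR, and 0 called with DESeq2). At an unadjusted p under 0.05 there were 107 of 10218 autosomal genes in edgeR, again a smaller share than 0.05. The called genes were mostly at lower levels in PanCK+ than in IBA1+ segments. In the 6 shared ROIs, 7 of the 18 were lower in the PanCK+ segment in every ROI. Of the 18, 12 were lower in at least 5 ROIs, and none was higher in every ROI. These counts were not made over all genes, so whether the pattern is particular to the called genes was not tested. Near the floor, the scaling also enters. The lowest count stands at 2.63 in the PanCK+ and 0.657 in the IBA1+ segment of ROI 28 after Q3 scaling. In ROI 3 it stands at 5.25 in both segments. *Mup13* averaged 1709 Q3-normalized counts in PanCK+ and 4304 in IBA1+ segments. *Klrg2* was the clearest in the other direction, at 14.7 against 6.16 and higher in 4 of 6 ROIs. *Alb*, like *Mup13*, was lower in PanCK+ than in IBA1+ segments in 6 of 6 ROIs. Between genotypes in the PanCK+ segments their signs were opposite, with log2 fold changes of 0.63 for *Alb*, without a call, and -1.89 for *Mup13*.

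**Figure D3:**
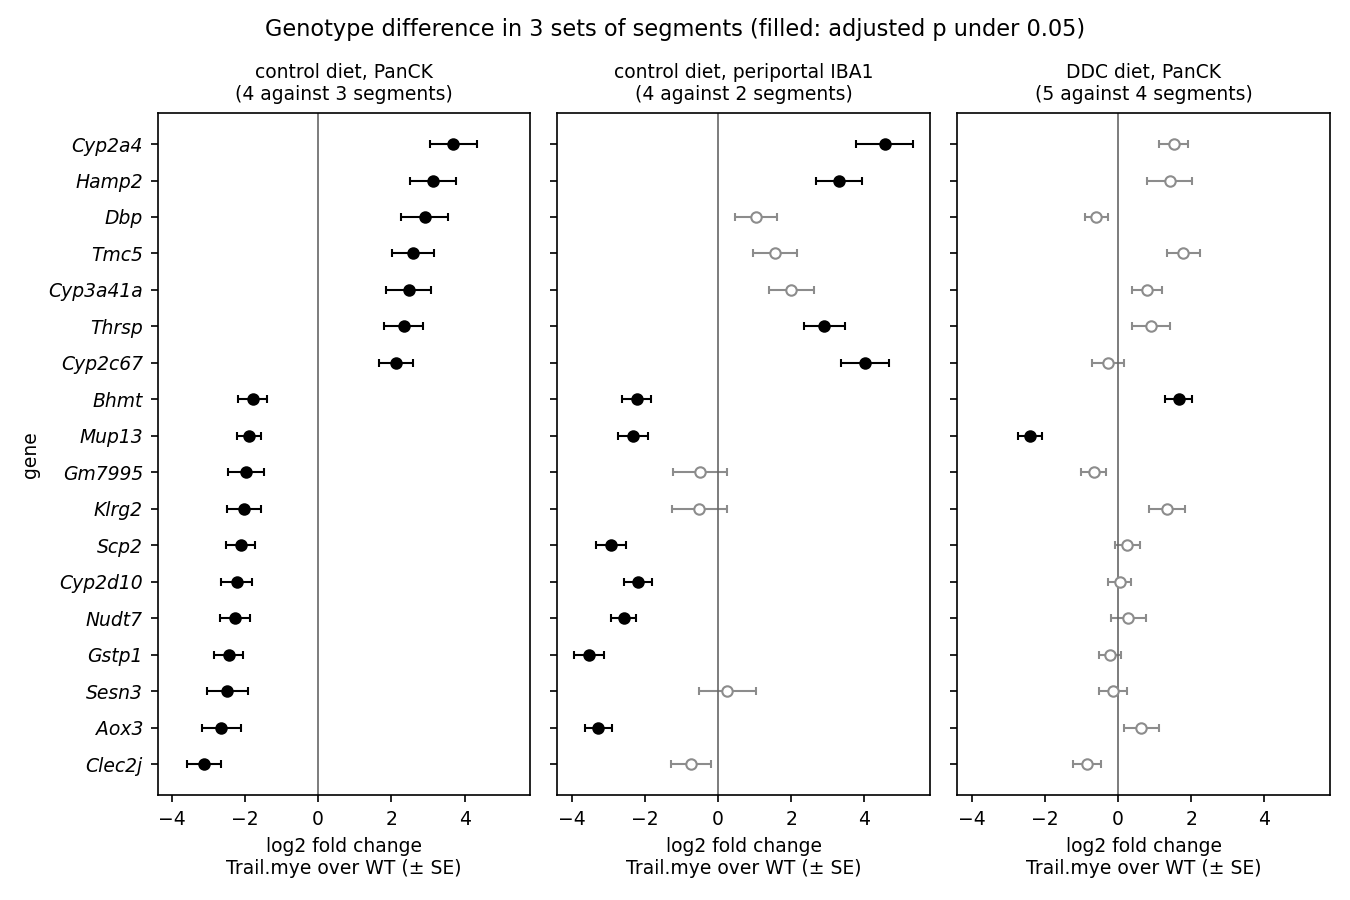
Log2 fold change of Trail.mye over WT (points, with SE as bars) for the 18 called genes in control-diet PanCK, control-diet periportal IBA1 and DDC-diet PanCK segments, with filled points for an adjusted p under 0.05. In the IBA1 segments 11 of the 18 points are filled and 17 lie on the same side of 0, and on DDC 2 are filled.

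In DDC-fed mice, 5 Trail.mye against 4 WT PanCK+ segments, the picture of these genes was different. Of the 18, *Mup13* and *Bhmt* were called there, 10 had the same sign, and 17 had a smaller change. The 18 were chosen on the control diet, so a smaller change on DDC is in part fixed by that choice. Without a call, *Tmc5* (log2 fold change 1.78, adjusted p = 0.0584 in edgeR) and *Cyp2a4* (1.52, adjusted p = 0.0874) stayed higher in Trail.mye segments on DDC. In all, 15 autosomal genes were called (0.147%), 10 higher (0.0979%) and 5 lower (0.0489%), and this count moved with single segments, to 2, 3 and 1 without WT ROIs 7, 9 and 13, and to 55 and 9 without Trail.mye ROIs 35 and 36. *Mup13* was lower in Trail.mye segments on both diets, at 84.4 ± 23.9 Q3-normalized counts (SD, n = 4) in WT and 15.9 ± 9.19 (SD, n = 5) in Trail.mye segments on DDC (log2 fold change -2.40, adjusted p = 1.23e-06 in edgeR). *Bhmt* turned its direction. On DDC it was at 15.6 ± 4.49 in WT and 49.2 ± 15.8 in Trail.mye segments, a log2 fold change of 1.66 (adjusted p = 0.0252 in edgeR). The DDC-fed Trail.mye segments held 172180 to 836971 counts against 46676 to 61665 in the DDC-fed WT segments, so depth also moved with genotype there.

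The difference between the diets in the genotype contrast passed the test in 8 autosomal genes (0.0783%), and all 8 were among the 18. The interaction uses the same 7 segments in which the 18 were called, so a larger change on the control diet is in part fixed by that choice. The interaction was strongest in *Bhmt* (log2 -3.45 ± 0.54 SE, adjusted p = 2.95e-05 in edgeR), and *Dbp* was the 1 gene with an interaction above 0 (0.00979% of genes, against 0.0685% below; 3.51 ± 0.72 SE, adjusted p = 0.00754). Because *Dbp* stood at 1 count in every control-diet WT segment, the fitted size of its interaction depends on that floor. *Dbp* on DDC was at 20.9 ± 10.4 in WT and 13.6 ± 1.13 in Trail.mye segments. The other 6 were *Klrg2* (-3.37), *Aox3* (-3.28), *Nudt7* (-2.55), *Scp2* (-2.38), *Cyp2d10* (-2.27) and *Gstp1* (-2.23). *Gstp1* on DDC stood at 130 ± 28.1 in WT and 111 ± 36.5 in Trail.mye segments, with ranges that overlapped. The count of 8 fell with single segments left out, to 4 and 5 without control-diet WT ROIs 1 and 3, to 5, 2 and 5 without control-diet Trail.mye ROIs 27, 28 and 29, to 3 and 4 without DDC-fed WT ROIs 9 and 11 and to 5 without DDC-fed Trail.mye ROI 36, and it was 3 with DESeq2.

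The Y-linked targets also lost their difference on DDC. *Gm21783* had 35, 24, 15 and 27 counts in DDC-fed WT segments and 151, 85, 104, 168 and 108 in the deeper DDC-fed Trail.mye segments, a log2 fold change of -0.30 (adjusted p = 0.812 in edgeR). Its interaction with diet passed the test (adjusted p = 5.56e-06 in edgeR). Low values of this Y-linked target thus lay in the Trail.mye segments of the control diet and in none of the other 3 PanCK groups. The female-biased list had a median log2 fold change of 0.16 on DDC and 1.13 in the control-diet IBA1+ segments, and the male-biased list had 0.10 and -1.62. The medians of all genes were 0.21 on DDC and -0.08 in the IBA1+ segments.

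**Figure D4:**
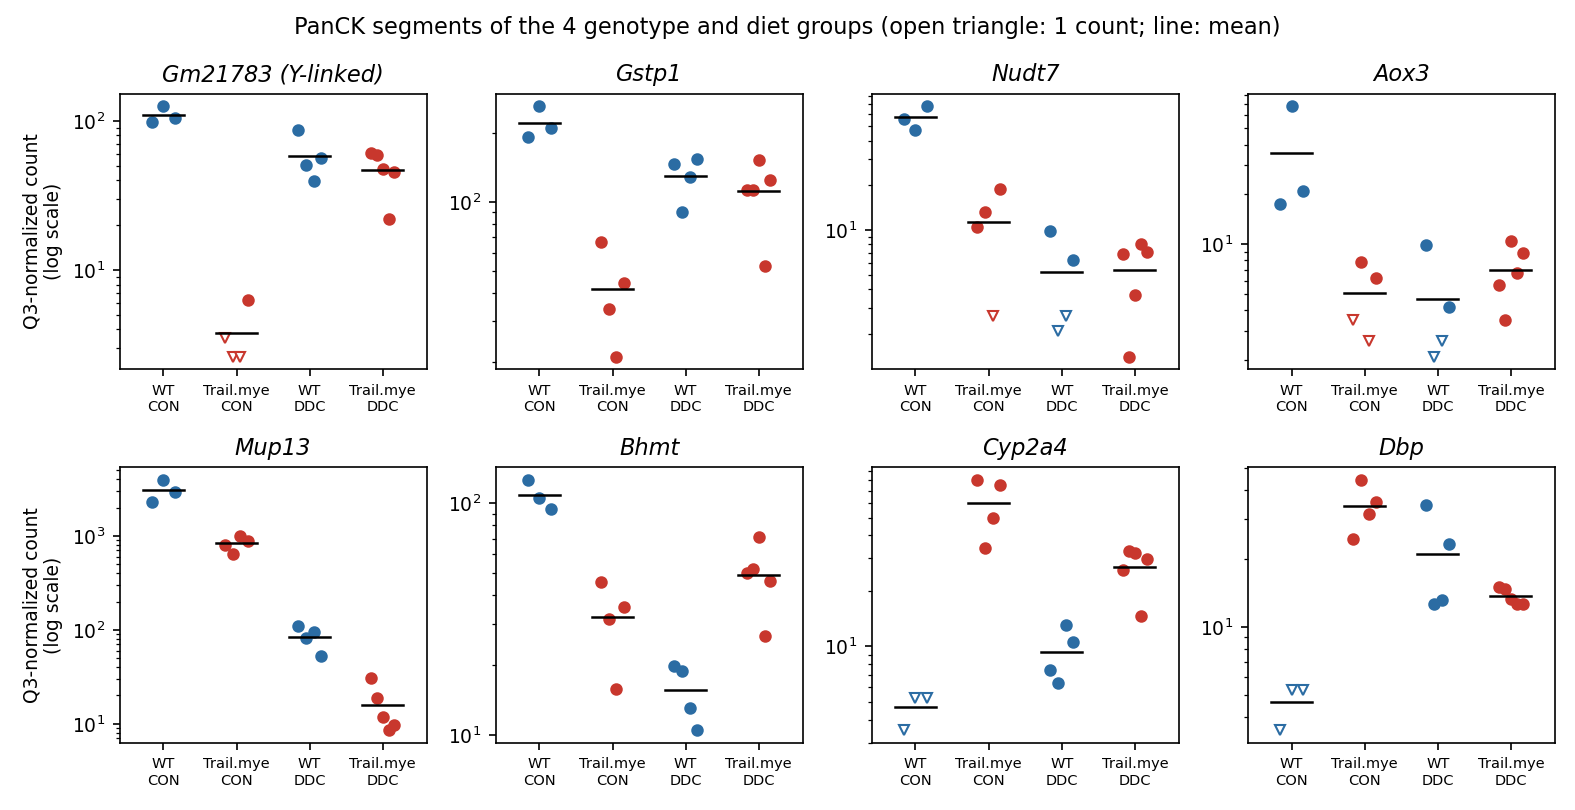
Q3-normalized counts (log scale) of 1 Y-linked gene and 7 of the called genes in the PanCK segments of the 4 genotype and diet groups (3 WT and 4 Trail.mye segments on control diet, 4 and 5 on DDC), with lines for means and open triangles for segments at 1 count. Gm21783 is low in the Trail.mye control-diet group alone, Mup13 is lower in Trail.mye segments on both diets, and Bhmt is lower on control diet and higher on DDC.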

How the data were processed

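The authors hybridized mouse Whole Transcriptome Atlas probes to formalin-fixed liver sections, collected segments by PanCK and IBA1 staining, sequenced the barcodes and filtered targets on their limit of quantification. The submitters' processing notes name mm10 and bcl2fastq, and the aligner and counting settings are not given in the sources used. The deposited expected counts per gene were whole but for 3 genes, which were rounded, and the negative probe was left out. The deposited Q3 signal values are these counts times 1 factor per segment. Amplified barcodes are not independent molecules, so floors cover counting error only.

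Groups came from the labels. Contrasts were fitted by the quasi-likelihood test of edgeR 4.0.16 under R 4.3.3 (75th percentile factors, no filter, Benjamini-Hochberg adjustment over 10547 genes) on the 16 PanCK+ segments, the 15 periportal IBA1+ segments, or all 31. Autosomal genes were found by symbol in RefSeq (GRCm38.p6), with 283 X-linked, 11 Y-linked and 35 unmatched genes outside. The standard error is that of the log2 fold change. Tests are two-sided.

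Genes were named by a rule: up to 12 called autosomal genes in each direction whose groups do not overlap, called members of the 26 lists, and the marker, chemokine, allele and Y-linked genes of the text. Outside this rule, uncalled list members such as *C6*, *Nr1d2*, *Per2*, *Col3a1*, *Rgs5*, *Cxcl16*, *Bcl2l1*, *Igkc* and *Igha* were picked with their values known. The members, lists and tests were chosen with earlier results of these data known. Alternatives were TMM and total-count scaling, filterByExpr, thinning, DESeq2 1.42.0, limma 3.58.1, the study's unpaired two-group test, a fit to the 7 compared segments alone, 1 taken off every count, and each segment left out. The fit was tested on simulated data. PanCK+ and IBA1+ segments of 1 ROI share its number. Their deviations from the group means correlated at -0.01 to 0.09 in 6 control-diet ROIs (3089 genes), and no genotype groups share a ROI. Plots were drawn with matplotlib 3.10.9 in Python 3.11.15.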

Additional observations from a re-analysis of the deposited data

Results flagged for a closer look

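Within the 4 control-diet Trail.mye PanCK+ segments, 5 of 38 measures had a single segment far from the rest. The usual rate of about 1 in 20 by chance is no yardstick for these 5. *Igkc*, *Igha* and the total count were added to the named genes, and *S100a8* and *Cxcl5* lie near the floor. The gap of the extreme segment to its neighbour was 0.864 of the range for the total count (54834 in ROI 29 against 37758 for the next), 0.849 for the immunoglobulin gene *Igkc* and 0.992 for *Igha*. *Igkc* had 51 counts and *Igha* 52 in ROI 29, against at most 7 and 1 in the other 3 Trail.mye segments. Neither was called between genotypes. For *S100a8* (0.893) and *Cxcl5* (0.848) the extreme segment had 2 and 4 counts, against 1 in the others.

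The genotype contrast differed between the diets in 8 called genes by the interaction test, at log2 values of 3.51 for *Dbp*, -3.45 for *Bhmt*, -3.37 for *Klrg2*, -3.28 for *Aox3*, -2.55 for *Nudt7*, -2.38 for *Scp2*, -2.27 for *Cyp2d10* and -2.23 for *Gstp1*. Over 19 or 20 alternatives each, the call was made in 20 for *Bhmt*, 18 for *Dbp*, 14 for *Klrg2*, 13 for *Aox3*, 12 for *Scp2*, 9 for *Gstp1*, 5 for *Nudt7* and 4 for *Cyp2d10*, and every sign stayed the same. The value of *Dbp* depends on the floor, since its control-diet WT segments all stood at 1 count.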

How the results depend on the processing

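Of 322 pairs of a called gene and an alternative, 236 kept the call, 86 lost it and 0 reversed it. The 18 autosomal calls of the control-diet PanCK+ contrast became 10 with DESeq2, 40 and 36 with limma on log2(Q3 + 1) and log2(Q3 + 0.5), 236 at the unadjusted threshold with a log2 fold change beyond 1, and 0 with the methods' two-group test (774 unadjusted), and 9 (without WT ROI 1) to 17 with 1 segment left out. With 1 taken off every count it was 25 (8 higher, 17 lower), where *Thrsp* and *Cyp2c67* lost the call, and in a fit to the 7 compared segments alone it was 20, where *Thrsp* lost it. Splits into higher and lower moved from 7 and 11 to 8 and 7 with TMM, 15 and 10 with filterByExpr and 7 and 5 after thinning. The 15 calls on DDC became 94 with filterByExpr, 1 after thinning, 28 with DESeq2 and 1 (without WT ROI 13) to 55 (without Trail.mye ROI 35) with 1 segment left out, and TMM split them into 1 higher and 15 lower in place of 10 and 5. The 8 interaction calls became 5 with TMM, 14 with filterByExpr, 1 after thinning, 3 with DESeq2 and 2 to 10 with 1 segment left out. The 20 calls in IBA1+ segments became 13 after thinning and 4 (without WT ROI 5) to 21 with 1 segment left out. The causes were not tested. With ROI as a replicate block, the class interaction gave 0 calls, as without it. No paired analysis was possible for the genotype contrasts because the groups share no ROI number. Omitting the DDC-fed ROI 35, chosen after seeing the data, left 17 calls. Depth limits all of these, since 60.5% of autosomal genes stood at 1 count in WT segments.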
